A study of Mus musculus with 4 samples.

Results

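The BTG/TOB family is a small group of antiproliferative genes. Its 5 members described here, Btg1, Btg2, Btg3, Tob1 and Tob2, were taken by gene symbol from the array's probe annotation. They are 5 of 19057 named genes on the array, and they are read by 12 probes. A probe was called detected where its detection p, which ranks its signal against negative control beads, was at most 0.01. All 5 genes had at least 1 probe detected on at least 1 array, as did 8674 genes in all, and 8 of the 12 family probes were detected. In RefSeq's GRCm38.p6 annotation the genes lie on 5 chromosomes: Btg1 at chr10:96617001-96622813, Btg2 at chr1:134074865-134079155, Btg3 at chr16:78359860-78377181, Tob1 at chr11:94209842-94215495 and Tob2 at chr15:81848270-81858326.

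The arrays came from CL4188, a conditional lymphoma line of strain FVB/N whose MYC expression is shut off by doxycycline (DOX). The control line carried the MSCV retroviral vector, and miR-17-92 line carried MSCV with the miR-17-92 microRNA cluster. Each line was profiled with no agent (MYC on) and with DOX at 20 ng/ml for 48 hours (MYC off). The 4 groups thus shared 1 parental line and a retroviral vector, and each held 1 array, so no value could be checked against replicates, and no test was run. The labels do not say how the line was cloned, or which species' MYC it carries.

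BTG and TOB proteins share an amino-terminal domain that binds CNOT7 and CNOT8, the CAF1 deadenylases of the CCR4-NOT complex. Through it they speed the shortening of poly(A) tails, and TOB proteins also reach the tail by binding the cytoplasmic poly(A)-binding protein. Overexpressed members slow entry into the cell cycle, and in mouse T cells Btg1, Btg2 and Tob1 are known for their part in quiescence. Btg2 is a textbook p53 target, and Btg1 is a reported target of FOXO3.

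The mouse microRNAs of the cluster are shown first, because the contrast between the lines is defined by the cluster. The labels do not give the species of the inserted copy. The mouse cluster lies on chromosome 14, plus strand, of GRCm38.p6 (chr14:115043684-115044496 from the first to the last main mature arm). Sequences are from RefSeq, written 5′ to 3′, and capitals mark the seed, bases 2 to 8. The 6 microRNAs hold 4 different seeds. miR-17 and miR-20a share AAAGUGC, miR-19a and miR-19b share GUGCAAA, and miR-18a and miR-92a have a seed each.
miR-17-5p: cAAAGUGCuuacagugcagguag
miR-20a-5p: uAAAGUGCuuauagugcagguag
miR-18a-5p: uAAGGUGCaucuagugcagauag
miR-19a-3p: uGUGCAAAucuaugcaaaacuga
miR-19b-3p: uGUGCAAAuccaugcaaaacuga
miR-92a-3p: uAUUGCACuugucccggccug

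The 250 bases before a RefSeq transcript start are shown for Btg1, for Btg2, its close relative, and for Tob1, the paralogue with the largest measured DOX effect. They lie at chr10:96616751-96617000 on the plus strand, chr1:134079156-134079405 on the minus strand and chr11:94211204-94211453 on the plus strand of GRCm38.p6 (RefSeq). The Tob1 start used lies inside the span of the gene given above, so its window is not upstream of the whole gene. Capitals mark matches on either strand to 7 motifs. The E-box bound by MYC with MAX was searched as CACGTG. The forkhead motif was searched as GTAAACA. The GC box was searched as GGGCGG, the NF-Y box as CCAAT and the TATA box as TATAAA. The cyclic AMP response element was searched as TGACGTCA, and the NF-kB consensus is given by name.
Btg1: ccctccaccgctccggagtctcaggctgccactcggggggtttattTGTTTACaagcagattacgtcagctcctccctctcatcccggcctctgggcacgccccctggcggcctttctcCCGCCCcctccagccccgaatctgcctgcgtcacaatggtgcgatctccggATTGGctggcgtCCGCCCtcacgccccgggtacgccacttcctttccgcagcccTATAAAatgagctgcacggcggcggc
Btg2: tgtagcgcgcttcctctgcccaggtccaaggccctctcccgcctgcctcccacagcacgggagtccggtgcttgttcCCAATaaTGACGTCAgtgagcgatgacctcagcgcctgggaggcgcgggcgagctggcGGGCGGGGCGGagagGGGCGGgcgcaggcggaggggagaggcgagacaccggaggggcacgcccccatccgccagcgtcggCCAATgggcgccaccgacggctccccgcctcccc
Tob1: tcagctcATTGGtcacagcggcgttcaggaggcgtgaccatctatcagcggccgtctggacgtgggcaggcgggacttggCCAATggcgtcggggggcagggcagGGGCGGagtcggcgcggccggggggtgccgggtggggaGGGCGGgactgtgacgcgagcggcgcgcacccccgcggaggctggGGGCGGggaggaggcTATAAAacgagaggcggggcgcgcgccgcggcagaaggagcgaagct

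In these windows the members shared the GC box. GGGCGG was found in Btg1, Btg2, Tob1, Tob2 and in 1 of the 2 windows of Btg3, and 32.7% of 32851 mouse promoter windows of the same length hold it. Btg2 had 3 matches, 2 of which overlap by 1 base. CCAAT was found in every member except Tob2, against 33.8% of all windows. The forkhead motif GTAAACA was in the Btg1 window alone, read on the minus strand 204 to 198 bases before the start, and 3.17% of all windows hold it. TATAAA was in Btg1 and Tob1 (12.4% of all windows). TGACGTCA was in Btg2 alone (1.55%). CACGTG, held by 6.02% of all windows, and the NF-kB consensus, held by 0.14%, were found in no family window. GC content ran from 57.2% in 1 window of Btg3 to 75.2% in the other, against a median of 52.4% over all windows. The shares of all windows given above were not matched for GC content. A match is a string of letters and no evidence of binding.

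The brighter Myc probe served as a check of the labels. Its raw signal was 507 and 526 without DOX (control line first) and 105 and 121 with DOX. It was not detected with DOX, so it was at least 6.28-fold and 5.80-fold lower. The other Myc probe was detected on no array. The species of the line's MYC is not given, so whether these probes read it was not tested. Of 8 T-cell markers on the array, 5 (Cd3e, Cd3d, Cd3g, Cd4 and Thy1) were detected on both arrays without DOX and 7 on both with DOX, when Cd8a and Cd2 were added. None of 3 B-cell markers was detected on any array. Of 5 myeloid markers only Itgam was detected, on both DOX arrays. Of 3 stromal markers on the array only Pecam1, an endothelial marker, was detected, and it was detected on every array. The erythroid marker on the array was not detected. The part of other cells in the results was not tested. The untreated pair of arrays shared 1 slide and the treated pair a different one. Slide and treatment therefore cannot be told apart in either DOX effect, while each contrast of the lines lies within a slide. Because the arrays measure pooled RNA, fewer cells expressing a gene and less RNA per cell cannot be told apart.

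With MYC off in the control line, Btg1 was far higher, Tob1 and Tob2 were higher, Btg2 came up from below detection, and Btg3 differed little on the reported scaling. Signals below are deposited raw intensities, then the values after background correction and quantile normalization on the log2 scale, on which all ratios were taken. The level of one probe cannot be set against that of another, so only ratios are compared between genes. As a rough guide to error, the spread per probe is given, a robust SD from the gap between both brightest probes of the same gene over 3502 genes. It was log2 0.33 in this comparison and says nothing of the spread between cultures.

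Btg1 was read by 2 probes. The raw signal of the brighter probe was 1294 in the control line and 1178 in the miR-17-92 line without DOX, and 18194 and 12612 with DOX. After normalization its levels were log2 10.31, 10.07, 14.44 and 13.70 in the same order. Both DOX arrays stood far above both arrays without DOX. In the control line Btg1 was 17.6-fold higher with DOX (log2 4.13), which placed it 9th from the top of 6949 genes with a probe detected on all 4 arrays. The dimmer probe, with raw signals of 730 and 582 without DOX and 11500 and 5612 with DOX, gave 19.9-fold (log2 4.31).

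Tob1, whose protein joins the deadenylase to poly(A)-binding protein and restrains T-cell activation, had raw signals of 421 and 363 without DOX and 1636 and 940 with DOX, on its only probe. The normalised levels were log2 8.46, 8.001, 10.54 and 9.64. It was 4.21-fold higher with DOX in the control line (log2 2.08), and 3.48% of those 6949 genes had a higher ratio.

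Tob2, the second TOB protein, had raw signals of 440 and 487 without DOX and 1115 and 772 with DOX on its brightest probe. It was 2.56-fold higher in the control line (log2 1.36), and 10.4% of those genes had a higher ratio. A second, dim probe annotated to Tob2, with raw signals of 178 and 223 without DOX and 220 and 193 with DOX, was not detected in the control line without DOX and was at least 1.05-fold higher there with DOX. With the mean of these probes the gene was at log2 0.89, short of 2-fold.

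Btg2, the p53-inducible member, was not detected without DOX in either line, with raw signals of 125 and 143. With DOX its signal was 403 in the control line and 289 in the miR-17-92 line, and it was detected in both. It was at least 2.71-fold higher with DOX in the control line (log2 1.44), a bound that fell short of 2-fold with the authors' processed values (0.71) and without background correction (0.81). For this bound the undetected array was set to the level of its faintest detected probe, or to the probe's own level where that was higher. Since Btg2 was detected through the DOX arrays alone, it is not counted among the members whose ratio was measured on both sides.

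Btg3, also known as ANA, had raw signals of 291 and 324 without DOX and 356 and 453 with DOX on its brightest probe. After normalization these were log2 7.72, 7.74, 7.80 and 8.36. It differed by log2 0.08 in the control line, less than the spread per probe, but by 0.54 with median scaling, more than that spread. Its dimmer detected probe, with raw signals of 195 and 241 without DOX and 223 and 199 with DOX, gave log2 0.10.

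Of the 4 members detected on all 4 arrays, 3 were at least 2-fold higher with DOX in the control line and none was 2-fold lower. Among all genes detected on all 4 arrays 17.2% were 2-fold higher and 18.3% lower, and of the 8674 genes with any detection 37.9% were past 2-fold in either direction.

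**Figure D1:**
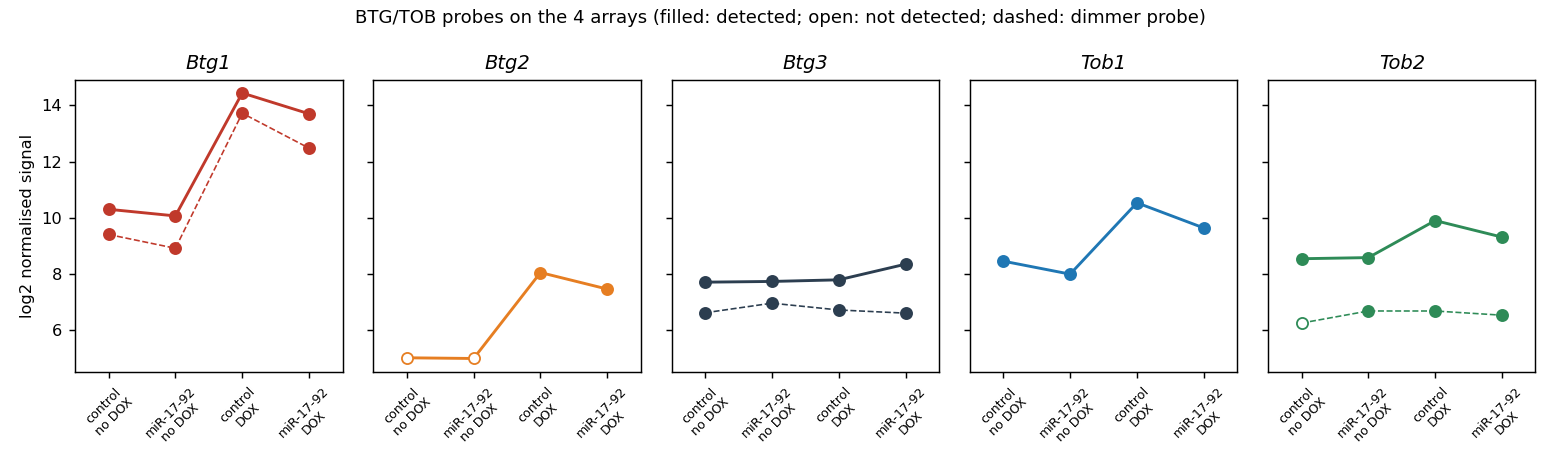
Normalised log2 signal (vertical axis) of the 8 detected BTG/TOB probes on the 4 arrays (horizontal axis), 1 panel per gene, with 1 array per group and no error bars. Solid lines join the brightest probe of a gene and dashed lines its dimmer probe; open points were not detected. Btg1 goes from 10.31 to 14.44 in the control line, while the brightest Btg3 probe lies between 7.72 and 8.36 and its dimmer probe between 6.61 and 6.97.

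In the miR-17-92 line Btg1 again had the largest ratio among the 4 members measured on both sides, and Tob1 was past 2-fold. Tob2 was short of 2-fold, except with median scaling (log2 1.02). Btg1 was 12.4-fold higher with DOX (log2 3.63), 10th from the top of the same 6949 genes, and 11.8-fold (3.56) on its dimmer probe. Tob1 was 3.12-fold higher (1.64) and Tob2 1.66-fold (0.73), and the dim Tob2 probe was 1.11-fold lower. Btg2 was at least 1.98-fold higher. Btg3 was 1.53-fold higher (0.61), but its dimmer probe was 1.28-fold lower (-0.35), so its direction is unsettled. Of the 4 members detected on all 4 arrays, 2 were at least 2-fold higher and none was 2-fold lower, against 12.3% of all such genes 2-fold higher and 12% lower. Of the 8674 genes 27.5% were past 2-fold in either direction. The spread per probe was log2 0.32.

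**Figure D2:**
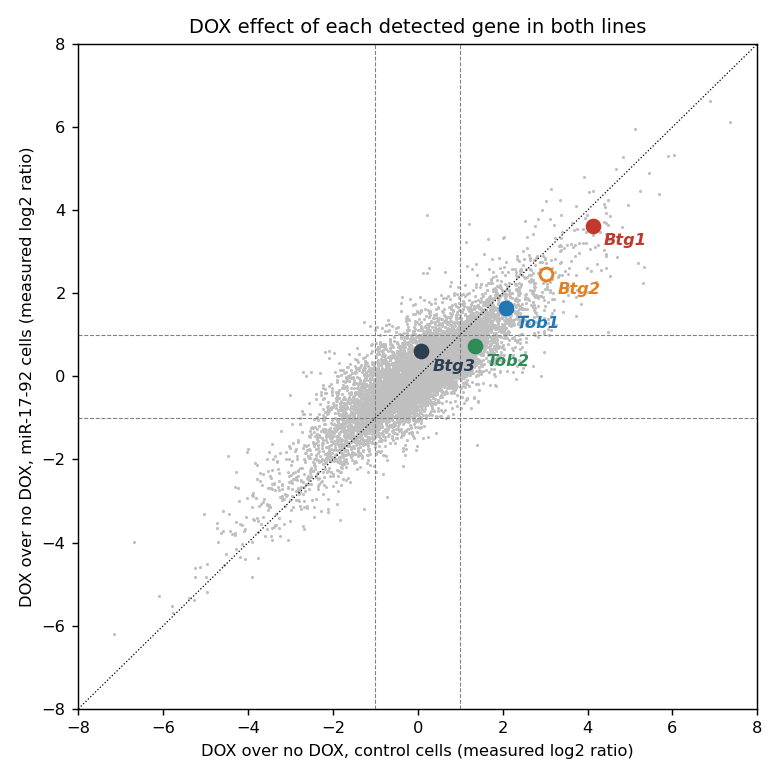
DOX over no DOX as measured log2 ratios in the control line (horizontal axis) and in the miR-17-92 line (vertical axis) for 8674 genes (grey), with the 5 family members in colour. Dashed lines mark 2-fold, the dotted line marks equal ratios, and the open Btg2 point, undetected without DOX, is no measured fold. Btg1, at 4.13 and 3.63, lies near the upper right end of the cloud, and Btg3, at 0.08 and 0.61, in its middle.

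Among the 4 members measured on both sides, Btg1 had the largest DOX ratio in both lines. In the control line its fold was 4.17 times that of Tob1, 6.86 times that of Tob2 and 16.6 times that of Btg3, and at most 6.48 times that of Btg2, whose own fold is a lower bound. In the miR-17-92 line the corresponding values were 3.97 for Tob1, 7.48 for Tob2, 8.09 for Btg3 and at most 6.27 for Btg2. The gaps of Btg1 to Tob1 were thus nearly equal in both lines, log2 2.06 and 1.99. The gap to Btg3 was log2 4.05 and 3.02, with the Btg3 probes at odds in the miR-17-92 line. An offset of 16 added to every signal makes the ratios of dim genes smaller. The DOX effects of both lines are measured between the same pair of slides.

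With MYC on, no member differed by 2-fold between the lines. Btg1 was 1.18-fold lower in the miR-17-92 line than in the control line (log2 -0.24), and 1.41-fold lower (-0.49) on its dimmer probe. Tob1 was 1.38-fold lower (-0.46), which was below 96.0% of the 6949 genes. On their brightest probes Btg3 and Tob2 differed by log2 0.03 and 0.04, within the spread per probe of 0.19. The dimmer Btg3 probe was 1.27-fold higher (0.34), and the mean of the Tob2 probes gave 0.23, both beyond that spread. Btg2 was detected in neither line. Few genes moved in this comparison, 0.23% of those detected on all 4 arrays being 2-fold lower and 0.158% 2-fold higher, and 2.21% of the 8674 genes past 2-fold in either direction.

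With MYC off, Btg1, Tob1, Tob2 and Btg2 were lower in the miR-17-92 line on their brightest or only probes. Btg3 was higher, again without a 2-fold difference on the brightest probes. The rise of those 4 members in the control line and this contrast share the control array with DOX, so they are not independent. A high value on that array favours a lower ratio here. Btg2 is among the 4 through its detection on the DOX arrays alone. The median of all genes detected on all 4 arrays was log2 0.01, but those genes were not picked for a rise with DOX. Tob1 was 1.86-fold lower (log2 -0.90), Btg1 1.67-fold (-0.74), and Tob2 and Btg2 were lower by the same amount (-0.59 each). These differences of the brightest probes were larger than the spread per probe of 0.24. Of the 6949 genes, 5.22% lay below Tob1, 8.85% below Btg1 and 13.8% below Tob2. The dim Tob2 probe gave -0.15, within that spread, and the mean of the Tob2 probes -0.37. The dimmer Btg1 probe was 2.37-fold lower (-1.24), past the threshold that the brighter probe missed. Btg3 was 1.47-fold higher (0.56), while its dimmer probe was 1.08-fold lower. Among genes detected on all 4 arrays, 3.57% were at least 2-fold lower and 6.23% higher, and 11.2% of the 8674 genes were past 2-fold in either direction.

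**Figure D3:**
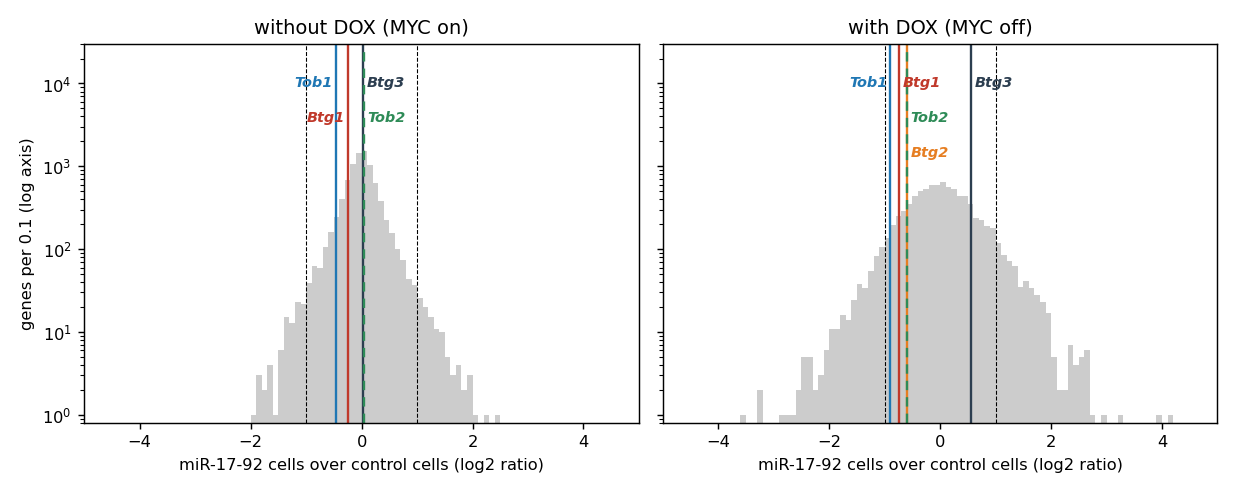
Log2 ratio of the miR-17-92 line over the control line without DOX (left) and with DOX (right): the grey histogram counts 8674 genes in steps of 0.1 on a log axis, and coloured lines mark the family members. Dashed black lines mark 2-fold, and Btg2 is left out on the left because neither array detected it. With DOX, Tob1, Btg1, Tob2 and Btg2 lie between -0.90 and -0.59 and Btg3 at 0.56.

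The DOX effect in the miR-17-92 line less that in the control line was within 2-fold for each member that could be measured. It was log2 -0.50 for Btg1, -0.43 for Tob1 and -0.63 for Tob2, with a spread per probe of 0.31. For Btg1 it was -0.29 with median scaling and -0.30 with the authors' values, both within that spread. Over the alternatives Tob1 came no closer to zero than -0.38 and Tob2 no closer than -0.51. On the reported scaling, lower differences than those of Btg1, Tob1 and Tob2 were found for 16.3%, 19.8% and 11.2% of the 6949 genes. These values were thus not at the edge of the distribution. Across all genes 2.75% of those detected on all 4 arrays were at least 2-fold below 0 and 6.27% above it, and 11.9% of the 8674 genes were past 2-fold either way. The 2 Btg1 probes gave -0.50 and -0.75. For Btg3 the brightest probe gave 0.53 and the dimmer probe -0.45. On the reported scaling, the fold of Btg1 in the miR-17-92 line was 70.5% of that in the control line, that of Tob1 74.1% and that of Tob2 64.7%. These comparisons share arrays with those above and add no separate observation.

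The levels of Btg1 fell in the order control line with DOX, miR-17-92 line with DOX, control line without DOX and miR-17-92 line without DOX. Neighbours in this order were log2 0.74, 3.39 and 0.24 apart. Tob1 had the same order, with gaps of 0.90, 1.18 and 0.46. For the brightest Tob2 probe the last gap was 0.04, within the spread per probe. For the brightest Btg3 probe the last gaps were 0.06 and 0.03, and the miR-17-92 line with DOX was highest, whereas on the dimmer probe (log2 6.63, 6.97, 6.73 and 6.61) the same array was lowest.

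The genes nearest Btg1 over the 4 arrays were picked from all genes, and they lay closer to it than its paralogues did. Likeness was the root mean square distance between log2 profiles, each centred on its own mean, over the 6946 genes whose brightest probe was detected on all 4 arrays. The 6 nearest were Ccng2, Bcl6, Lypd6b, Tmsb4x, Ifngr1 and Rgs14, at distances from 0.0987 to 0.259. Ccng2, the gene of an unconventional cyclin linked to cell-cycle arrest, stood at log2 8.03 and 7.67 without DOX and 11.98 and 11.49 with DOX. Bcl6, a transcriptional repressor of lymphocytes, stood at 8.92 and 8.93 and then 13.31 and 12.63. Their DOX effects were log2 3.95 and 3.82 for Ccng2 and 4.39 and 3.70 for Bcl6. Since the 6 were picked from 6946 genes by distance to Btg1, DOX effects close to its own follow from the pick. Tmsb4x encodes an actin-sequestering peptide, Ifngr1 a chain of the interferon-gamma receptor and Rgs14 a regulator of G-protein signalling. By the same measure Tob1 was 218th (1.02), Tob2 838th (1.42) and Btg3 2626th (1.83). A profile of 4 arrays is short and mostly reflects the size of the DOX effect.

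**Figure D4:**
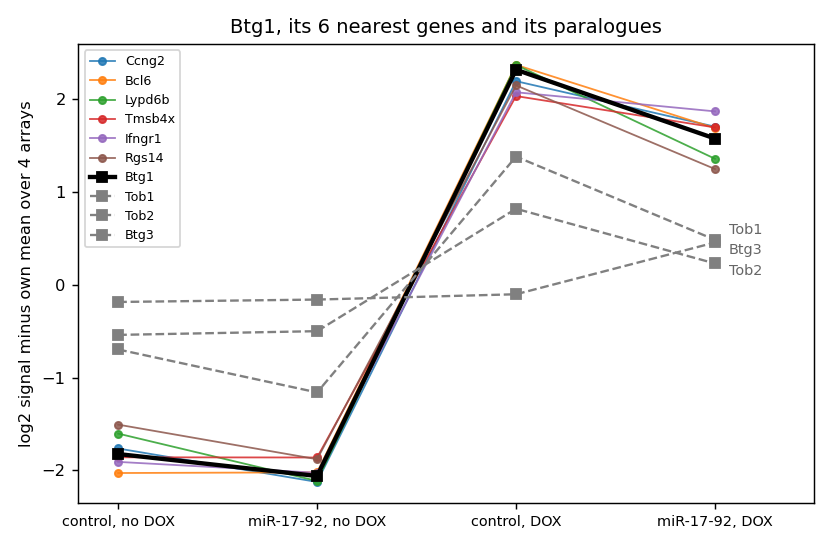
Log2 signal minus each gene's own mean over the 4 arrays (vertical axis) by array (horizontal axis) for Btg1 (black squares, thick line), its 6 nearest genes (coloured circles) and the 3 paralogues detected on all arrays (grey squares, dashed). The coloured lines, picked as nearest, lie within a narrow band around Btg1, and Tob1, Tob2 and Btg3 run flatter.

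The genes of the machinery that BTG and TOB proteins act on went both ways with DOX, as genes at large did. Counts in this paragraph are over list members detected on all 4 arrays, so genes that dropped below detection are outside them. The median of all genes detected on all 4 arrays was log2 0.01 in the control line and 0.06 in the miR-17-92 line. Of these genes 17.2% were 2-fold higher and 18.3% lower in the control line, and 12.3% and 12% in the miR-17-92 line. Of 10 detected genes of the CCR4-NOT complex, 2 were 2-fold higher and 1 lower with DOX in the control line (median 0.33), and 1 was higher in the miR-17-92 line (median 0.04). Cnot6l, a catalytic deadenylase, was at log2 1.68 and 1.20 (control line first), and Cnot2 at 1.01 and 0.57. Cnot7, the direct partner of the family, was at 0.91 and 0.20, and its paralogue Cnot8 was not detected on any array. Cnot9 was at -1.03 and -0.80. Of 8 genes of the PAN2-PAN3 deadenylase and poly(A)-binding group, 1 was higher and 1 lower in the control line (median 0.04). Pabpc4, a cytoplasmic poly(A)-binding protein gene, was 5.34-fold and 4.48-fold lower, and Pabpc1 lay at -0.77 and -0.34. Pan3 was at 1.11 and 0.28, and Paip2, which encodes an inhibitor of poly(A)-binding protein, at 0.98 and 0.85. Of 7 decapping and decay genes, 1 was higher and 1 lower in the control line (median 0.34). Ddx6, a helicase of decapping, was at 1.91 and 0.96, Dcp2, the decapping enzyme, at -1.21 and -0.77, and Dcp1b at 0.58 and 0.90. Xrn1, the 5′ exonuclease, was detected with DOX alone and was at least 1.85-fold and 1.56-fold higher.

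Reported partners of the family outside the complex were few. Prmt1, the arginine methyltransferase that BTG1 and BTG2 bind, was 3.20-fold and 2.57-fold lower with DOX. Smad5 was at log2 1.02 and 1.07 and Smad1 at 0.82 and 1.18. Cpeb4, a cytoplasmic polyadenylation factor, was at least 3.76-fold higher in the control line and 1.54-fold higher in the miR-17-92 line. With DOX it was 2.66-fold lower in the miR-17-92 line than in the control line.

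Of 7 other T-cell quiescence factors detected on all arrays, 4 were 2-fold higher with DOX in the control line (median 1.27) and 2 in the miR-17-92 line (median 0.54), and none was 2-fold lower in either. Foxo1 was at log2 1.78 and 1.70, Runx1 at 1.54 and 1.93, and Klf2 at 1.59 and 0.90. Slfn2 was at least 1.86-fold higher in the control line and not detected in the miR-17-92 line. Of 7 p53 targets other than Btg2 detected on all 4 arrays, 4 were 2-fold higher in the control line (median 1.24). In the miR-17-92 line 1 was (median 0.62). Over all 12 with any detection, 5 were higher and 1 lower in the control line (median 0.66). In the miR-17-92 line 2 of the 12 were higher and 2 lower (median 0.42), by ratios that include undetected arrays. Trp53inp1 was 10.5-fold and 5.45-fold higher, and Bbc3, the gene of the BH3-only protein PUMA, 5.08-fold and 1.19-fold. Gadd45a was at least 2.02-fold and 2.79-fold higher, while Aen, a p53-induced nuclease gene, was at least 2.58-fold and 2.89-fold lower. Of 7 G1 genes detected on all 4 arrays, 2 were higher and 3 lower in the control line (median -0.75). In the miR-17-92 line 2 were higher and none lower (median -0.38). Genes that dropped below detection are outside these counts. Over all 10 G1 genes with any detection, 2 were higher and 5 lower in the control line. In the miR-17-92 line 2 of the 10 were higher and 3 lower, by ratios that include undetected arrays. Ccnd2, a D-type cyclin gene, was at least 12.2-fold lower in the control line and 11.4-fold lower in the miR-17-92 line, and Cdk6, its kinase partner, at least 3.69-fold and 4.16-fold lower. Ccnd3 was 2.89-fold and 3.32-fold higher. E2f1 was at -1.93 and -0.38, and with DOX it was 2.47-fold higher in the miR-17-92 line than in the control line. For genes detected on all 4 arrays the background is 17.2% 2-fold higher and 18.3% lower in the control line. In the miR-17-92 line it is 12.3% and 12%. Of the 8674 genes with any detection, 37.9% and 27.5% were past 2-fold in either direction (control line first).

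**Figure D5:**
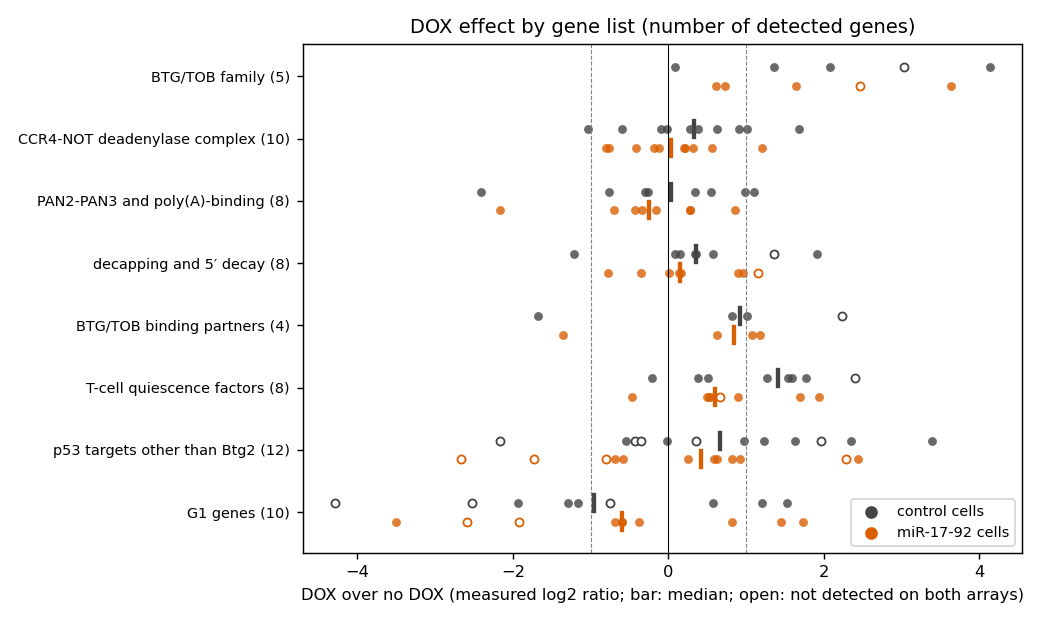
DOX over no DOX as measured log2 ratios (horizontal axis) for the genes of the family and of 7 lists (rows, with the number of detected genes), in the control line (dark) and miR-17-92 line (orange). Thick bars are list medians over all points shown, the family has none, and open points were not detected on both arrays of the ratio and are no measured folds. The deadenylation and decay lists centre near 0. In the control line 3 family points measured on both arrays (Btg1, Tob1 and Tob2) lie above the 2-fold line. Of all genes detected on all 4 arrays 17.2% were 2-fold higher there. The open Btg2 point also lies beyond that line but is no measured fold.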

How the data were processed

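Per the labels' protocols, biotinylated cRNA was made from 4 samples of total RNA for Illumina arrays. GenomeStudio, with no version, appears in the submitters' processing notes. The authors deposited a raw intensity and a detection p-value for each probe. Detection columns carry slide positions and were linked to the signal column along which their p-value never rose. A second table deposited by the authors holds intensity rescaled per array, in the same rank order and with r = 1 to the raw signal. How they rescaled it is not stated.

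Background was corrected by normexp on the detection p-values in limma 3.58.1 (R 4.3.3), with an offset of 16, then log2 and quantile normalization. Quantile normalization makes every ratio relative to the other genes. Of 45281 probes, 34885 had 1 gene in the platform annotation, 18 several and 10378 none. Of those with 1 gene, 34807 were matched to RefSeq by gene number and took its symbol. A gene was its brightest detected probe. With 1 array per group, 2-fold was the threshold of size, and no test was run. The code recovered known folds set in a small share of bright probes, in data simulated from the control array without DOX. No dim probe was changed there, and no broad shift of many genes was simulated. Named were the 5 members, Btg4, Myc, Mir17hg, the 6 genes nearest Btg1 and up to 4 members per list with the largest ratio in the control line. Cnot8 was added after its values were seen. Members and lists were chosen with earlier results of these data known. Alternatives were median scaling, the authors' values, no background correction, an offset of 50, the mean of probes and 2 other detection rules.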

Additional observations from a re-analysis of the deposited data

How the results depend on the processing

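No paired analysis was possible because each group holds 1 array, and for the same reason no replicate could be left out. Over the 23 values of the 5 members, the 7 alternatives gave 158 values. Of these 49 were identical to the reported value, since the alternative left the same probe and scale. The other 109 kept its sign and 103 of them its side of 2-fold. With detection required on all 4 arrays Btg2 has no value. As log2, the values that moved by more than the spread per probe were these. With the authors' processed values the DOX effect in the control line was 3.64 for Btg1, 1.72 for Tob1 and, as a bound, 0.71 for Btg2, and in the miR-17-92 line 1.28 for Tob1 and 0.38 for Btg2, and the miR-17-92 effect with DOX was -0.49 for Btg1. Without background correction the bounds of Btg2 were 0.81 and 0.50, and Tob1 was 1.28 in the miR-17-92 line. With median scaling the DOX effects were 1.88 and 1.38 for Btg2 (bounds), and 0.54 and 0.997 for Btg3. With detection p at most 0.05 the bounds of Btg2 were 2.14 and 1.55. With the mean of probes the miR-17-92 effect with DOX was -0.99 for Btg1 and 0.22 for Btg3. Tob2 then had DOX effects of 0.89 and 0.29 and a miR-17-92 effect without DOX of 0.23, and Btg3 a DOX effect of 0.13 in the miR-17-92 line and a difference of 0.0383.

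The number of genes past 2-fold changed more. In the miR-17-92 line it was 2389, and 1535 with the authors' values and 1497 without background correction. For the difference of the DOX effects it was 1034, and 396, 421 and, with detection on all 4 arrays, 627. For miR-17-92 with DOX it was 971, and 460 and 471. For miR-17-92 without DOX it was 192, and 8 with the authors' values, 13 without background correction, 55 with the offset of 50, 27 with detection on all 4 arrays and 291 with detection p at most 0.05. The share higher among genes past 2-fold in the control line was 52.4%, and 40.4% with the authors' values, and in the miR-17-92 line 53.6% and 41.0%. The median DOX effect of all genes in the control line was 0.06, and 0.24 with median scaling and -0.12 with the authors' values. The causes were not tested. Dim genes such as Btg2 are limited by the background.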

Other observations

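Btg4, a family gene known from oocytes that was not among the members, was detected in the control line with DOX alone, with raw signals of 159 and 181 without DOX and 188 and 161 with DOX (control line first), too close to the floor for a DOX fold. The probe of Mir17hg, the host transcript of the endogenous miR-17-92 cluster, had raw signals of 1325 and 1283 without DOX and 222 and 263 with DOX. It was 12.4-fold and 7.71-fold lower with DOX, opposite in direction to Btg1. Without DOX it was 1.10-fold lower in the miR-17-92 line than in the control line, where Btg1 was also lower. With DOX it was 1.46-fold higher in the miR-17-92 line, between dim signals, while Btg1 was lower. A link between them was not tested. These arrays read no mature microRNA.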
